A study of Homo sapiens with 2 samples.

Results

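The SOX, FOX and PAX genes were examined as a group of developmental regulators in the RUNX2 and MTA1 CUT&Tag peak lists of MDA-MB-231 cells. The members were the protein-coding genes whose symbol is SOX or PAX followed by a number, or FOX followed by a letter and a number, less 1 FOX gene left out by name. They numbered 72 of 20037 protein-coding genes in the RefSeq annotation of GRCh38, with 19 SOX, 44 FOX and 9 PAX genes, and lay on 20 chromosomes. The rule used names only, and no peak value entered it. MDA-MB-231 is an established triple-negative breast cancer cell line, and the cells were untreated. In CUT&Tag an antibody brings a transposase to the chromatin that holds its target, and the cut DNA is sequenced. There was 1 library for the RUNX2 antibody and 1 for the MTA1 antibody, and no control library was analysed here. A difference between the lists is therefore a difference between 2 libraries with no replicate check, and no p-value was computed. Antibody suppliers differ between the labels and the published methods, and the labels describe a library preparation that is not usual for CUT&Tag, so how each library was made is uncertain.

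RUNX2 is a transcription factor of bone development that binds a short core motif through its Runt domain. MTA1 is a subunit of the NuRD complex, which joins chromatin remodelling with histone deacetylation. SOX proteins bend DNA with an HMG box, FOX proteins bind it with a winged-helix forkhead domain, and PAX proteins bind it with a paired domain. These families set cell fate in the embryo, and several members, such as SOX9, FOXC1, FOXQ1 and FOXM1, are studied in breast tumours.

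Peaks were assigned to genes by position. An end peak overlapped the window of 3 kb on each side of a gene end, an inside peak overlapped the gene beyond those windows, and an intergenic peak had its centre over 3 kb from every protein-coding gene. The RUNX2 list held 61700 nuclear peaks and the MTA1 list 42683, each with a score whose scale was not stated. Scores were therefore compared only as ranks within a list, and the percentile of a peak is the percentage of its own list with a lower score. Read depth was unknown, so where no peak is listed the signal may be weak or absent. Intervals of shares are exact (Clopper-Pearson) 95% intervals, and those of medians are 95% intervals taken from the ordered values by a binomial rule. With few genes, such as the 6 members over 100 kb with a RUNX2 end peak, the latter run from the lowest to the highest value. Both kinds cover counting error over genes, peaks or promoter windows only.

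The promoters of 5 members are printed first, to show windows with peaks of both lists, with and without a match, and 1 with matches and no peak. Each is the 250 bases before the listed start, written 5′ to 3′ on the plus strand, which is the strand of the gene in all 5, from RefSeq on GRCh38.p14. Capitals mark the RUNX core motif, searched as TGTGGT or TGCGGT on both strands. FOXC1, a forkhead gene of mesoderm and of basal-like breast cancer, had 1 match with a peak of each list over it (chr6:1609665-1609914). FOXD2 (chr1:47437794-47438043), the SOXC gene SOX12 (chr20:325302-325551) and the forkhead repressor FOXK2 (chr17:82519482-82519731) had peaks of both lists and no match. PAX2, a kidney regulator, had 2 matches, 1 on each strand, and no peak (chr10:100735146-100735395).
FOXC1: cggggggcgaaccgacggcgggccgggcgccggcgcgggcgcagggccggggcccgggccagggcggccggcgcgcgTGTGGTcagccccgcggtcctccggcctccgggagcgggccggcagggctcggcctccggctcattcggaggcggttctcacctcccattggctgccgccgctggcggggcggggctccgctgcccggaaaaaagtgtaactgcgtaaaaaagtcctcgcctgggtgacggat
FOXD2: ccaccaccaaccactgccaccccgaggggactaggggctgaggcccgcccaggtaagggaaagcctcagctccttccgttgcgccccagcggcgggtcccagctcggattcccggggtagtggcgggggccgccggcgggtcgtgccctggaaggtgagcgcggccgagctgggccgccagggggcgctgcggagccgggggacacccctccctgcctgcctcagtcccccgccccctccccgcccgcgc
SOX12: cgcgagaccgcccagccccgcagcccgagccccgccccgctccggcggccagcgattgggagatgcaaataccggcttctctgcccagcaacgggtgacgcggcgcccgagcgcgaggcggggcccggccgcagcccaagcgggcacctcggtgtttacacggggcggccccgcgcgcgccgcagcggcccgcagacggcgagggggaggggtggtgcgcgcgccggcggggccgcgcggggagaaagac
FOXK2: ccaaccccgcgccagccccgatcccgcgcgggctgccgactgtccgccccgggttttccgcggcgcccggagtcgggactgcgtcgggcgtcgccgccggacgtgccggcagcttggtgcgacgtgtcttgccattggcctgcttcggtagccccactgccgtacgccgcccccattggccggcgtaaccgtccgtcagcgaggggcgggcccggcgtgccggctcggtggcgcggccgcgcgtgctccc
PAX2: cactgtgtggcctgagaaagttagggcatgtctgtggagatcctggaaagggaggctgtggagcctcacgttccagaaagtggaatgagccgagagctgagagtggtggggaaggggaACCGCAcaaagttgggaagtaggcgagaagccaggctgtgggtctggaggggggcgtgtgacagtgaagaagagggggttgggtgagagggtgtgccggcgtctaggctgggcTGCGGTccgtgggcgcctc
RUNX2 peaks covered 200 of these bases at FOXC1, 125 at FOXD2, 161 at SOX12 and 143 at FOXK2. MTA1 peaks covered 234 bases at FOXC1, 250 at FOXD2, 204 at SOX12 and 240 at FOXK2. At PAX2 neither list covered any base.

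The first question was how many SOX, FOX and PAX genes carried a peak near an end. RUNX2 end peaks were found at 37 of the 72 genes (51.4%, interval 39.3 to 63.4), against 59.9% of all protein-coding genes. MTA1 end peaks were found at 41 (56.9%, 44.7 to 68.6), against 59.1%. Both intervals contained the share of all genes, so no difference was detectable over all listed peaks with this window of 3 kb. When only peaks from the median score upward were used, the members lay below, with RUNX2 at 19 genes (26.4%, 16.7 to 38.1) against 44.2% and MTA1 at 20 (27.8%, 17.9 to 39.6) against 44.1%. With the narrowest peaks of each list left out, RUNX2 stood at 34.7% (23.9 to 46.9) against 53.0%, and MTA1 at 43.1% (31.4 to 55.3) against 53.4%. End peaks of both lists were present at 30 genes (41.7%, 30.2 to 53.9), against 51.9%. RUNX2 end peaks alone were present at 7 genes (9.72%, 3.999 to 19.01), against 8.0%. MTA1 end peaks alone were present at 11 genes (15.3%, 7.88 to 25.7), against 7.13%, and 24 genes (33.3%, 22.7 to 45.4) had neither, against 33.0%. Over all listed peaks within 3 kb, the share of MTA1 alone was the one whose interval did not contain the share of all genes. That did not hold with stronger peaks, where MTA1 alone stood at 6.94% (2.29 to 15.5) against 7.24% at or above the median score. With each list limited to its 10000 top scores it stood at 4.17% (0.868 to 11.7), below the 13.5% of all genes. Other windows were also counted with all listed peaks. At 1 kb, RUNX2 end peaks were present at 25 of the 72 members against 49.9% of all genes. MTA1 stood at 30 against 50.9%, and both lists at 20 against 43.9%. At 10 kb the counts were 45, 44 and 35, against 74.4%, 70.5% and 65.5%. The members lay below all genes in each case, but no interval was computed for these windows.

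**Figure D1:**
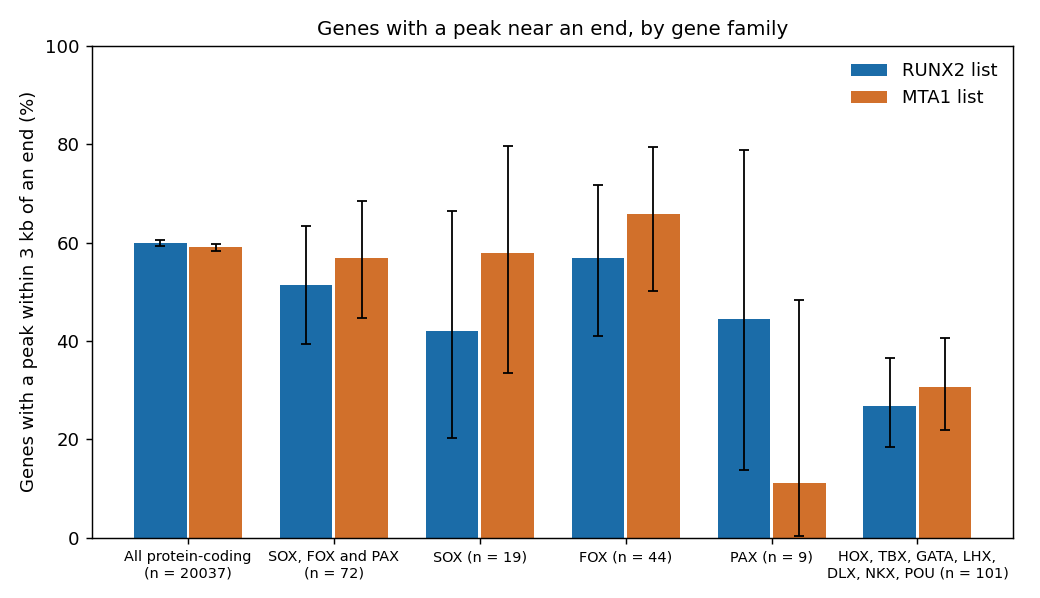
Percentage of genes with a peak within 3 kb of an end (y axis) for each gene group (x axis), with 1 bar per peak list and exact 95% intervals of counting error as lines. The 72 SOX, FOX and PAX genes stood at 51.4% for RUNX2 and 56.9% for MTA1, against 26.7% and 30.7% in the 101 HOX, TBX, GATA, LHX, DLX, NKX and POU genes.

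The PAX genes had a lower MTA1 share than the FOX genes. Of the 19 SOX genes, 8 had both lists at an end, 3 had MTA1 alone and 8 had neither. Of the 44 FOX genes, 21 had both, 4 had RUNX2 alone, 8 had MTA1 alone and 11 had neither. Of the 9 PAX genes, 1 had both, 3 had RUNX2 alone and 5 had neither. MTA1 end peaks were thus present at 65.9% of FOX genes (50.1 to 79.5), 57.9% of SOX genes (33.5 to 79.7) and 11.1% of PAX genes (0.281 to 48.2). RUNX2 end peaks were present at 56.8% of FOX genes (41.0 to 71.7), 42.1% of SOX genes (20.3 to 66.5) and 44.4% of PAX genes (13.7 to 78.8). The RUNX2 intervals overlapped, and the MTA1 interval of the PAX genes lay just below that of the FOX genes. The MTA1 interval of the SOX genes overlapped both. The PAX genes were also longer, with a median span of 62925 bp against 4921.5 bp for FOX and 4869 bp for SOX genes. Among genes of 10 to 100 kb, MTA1 end peaks were present at 0 of 6 PAX genes (0 to 45.9) and 7 of 10 FOX genes (34.8 to 93.3). These intervals overlapped, so with so few genes no family difference was detectable within that length. The part of length in the family shares was not tested.

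HOX, TBX, GATA, LHX, DLX, NKX and POU genes, which are also DNA-binding regulators of the embryo, carried end peaks less often. RUNX2 end peaks were present at 26.7% of these 101 genes (18.4 to 36.5) and MTA1 end peaks at 30.7% (21.9 to 40.7), and 64 had neither. The intervals of the SOX, FOX and PAX genes lay above these in both lists. The median span was alike, 6132 bp in the comparison families and 5967.5 bp in the members. HOX genes, which pattern the body axis, made up 39 of the 101, with RUNX2 at 12.8% and MTA1 at 20.5%. In the other families RUNX2 stood from 21.4% (NKX) to 50% (GATA and DLX), and MTA1 from 21.4% (NKX) to 53.3% (POU). Neighbouring HOX genes can share a peak, as HOXD12 and HOXD13 did, while the intervals count each gene separately. Of the single families, only HOX had intervals below those of the members, 4.30 to 27.4 for RUNX2 and 9.30 to 36.5 for MTA1. In each other family, of 6 to 15 genes, the intervals overlapped those of the members in both lists. A separation from these other families was thus not shown, and their pooled share without the HOX genes was not tested.

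The members were short, and fewer of them had a close neighbour than other genes did. Their median span of 5967.5 bp compared with 24115 bp for all protein-coding genes. Among genes under 10 kb, RUNX2 end peaks were present at 48.8% of 43 members (33.3 to 64.5), against 49.1%. MTA1 end peaks were present at 58.1% of the same members (42.1 to 73.0), against 47.8%. Among genes of 10 to 100 kb, RUNX2 stood at 52.6% of 19 members (28.9 to 75.6) against 66.1%, and MTA1 at 42.1% (20.3 to 66.5) against 65.7%. Among genes over 100 kb, RUNX2 stood at 60% of 10 members (26.2 to 87.8) against 58.1%, and MTA1 at 80% (44.4 to 97.5) against 56.6%. All 6 intervals contained the share of all genes of that length. Another protein-coding gene end lay within 6 kb of an end of 29.2% of the members and of 52.2% of all protein-coding genes. Among the 51 members with no such neighbour, RUNX2 end peaks were present at 52.9% (38.5 to 67.1) against 49.3%, and MTA1 end peaks at 54.9% (40.3 to 68.9) against 46.5%. Among the 21 with a neighbour, RUNX2 stood at 47.6% (25.7 to 70.2) against 69.6%, and MTA1 at 61.9% (38.4 to 81.9) against 70.5%. All 4 intervals contained the share of all genes of the same kind. The part of length and neighbours in the shares over all members was not tested.

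End peaks of the members had lower ranks than those of other genes in the MTA1 list, while the RUNX2 difference was within its interval. The highest-scoring end peak of a gene had a median percentile of 50.1 (29.3 to 75.4, n = 37) in the RUNX2 list, against 71.5 for all genes with one. In the MTA1 list the median was 44.1 (34.9 to 62.6, n = 41), against 74.8. The interval of the RUNX2 median contained the value of all genes, and that of the MTA1 median did not. In the comparison families the median was 42.3 (27.2 to 66.6, n = 27) for RUNX2 and 41.4 (36.3 to 64.4, n = 31) for MTA1. Low ranks were thus not particular to the members. A peak at or above percentile 90 was present at 4 of the 37 genes (10.8%) against 18.9%, and at 7 of the 41 (17.1%) against 26.4%. In members under 10 kb the median was 72.9 (22.7 to 88.4) against 72.1 for RUNX2, and 39.1 (16.9 to 62.6) against 75.6 for MTA1. In those of 10 to 100 kb it was 54.0 (29.3 to 88.1) against 72.5 for RUNX2, and 60.7 (37.6 to 97.1) against 76.3 for MTA1. In those over 100 kb it was 33.0 (13.8 to 63.5) against 66.7 for RUNX2, and 31.8 (11.8 to 97.6) against 67.8 for MTA1. The interval lay below the value of all genes for MTA1 in the short members and for RUNX2 in the long ones, and contained it in the other classes. With the narrowest peaks left out, the RUNX2 median was 75.4 against 75.5 and the MTA1 median 57.8 against 78.6.

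**Figure D2:**
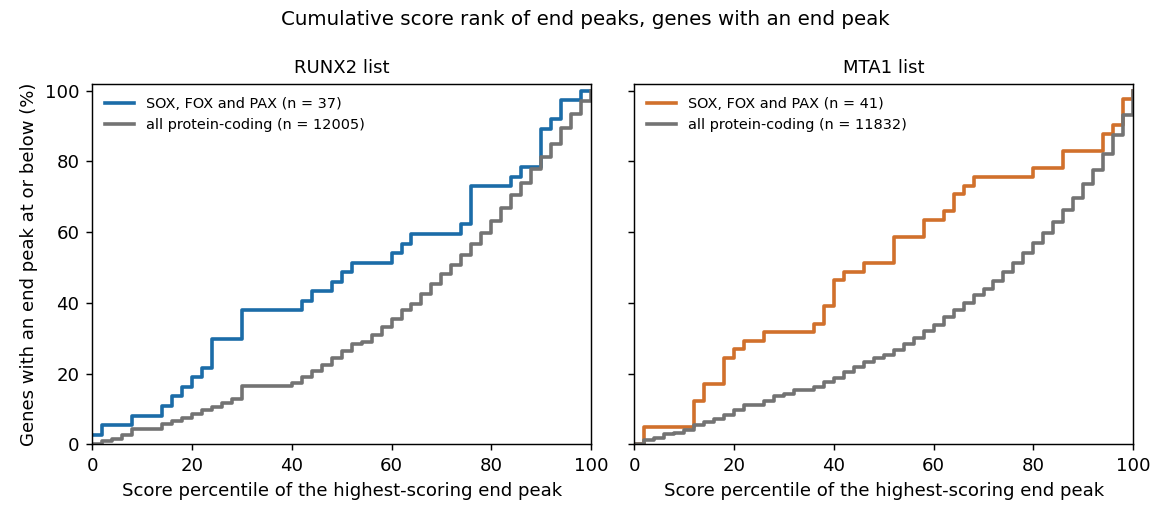
Cumulative percentage of genes (y axis) whose highest-scoring end peak is at or below a score percentile of its list (x axis), for the members and for all protein-coding genes with an end peak, with 1 panel per list. The curves of the members lie above those of all genes over most of the range, with medians of 50.1 (RUNX2) and 44.1 (MTA1) against 71.5 and 74.8.

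Part of the end peaks were of the narrowest width found in a list, 99 bp for RUNX2 and 116 bp for MTA1. These made up 31.4% of the 51 RUNX2 end peaks of the members (19.1 to 45.9), against 19.1% over all genes. They made up 25% of the 52 MTA1 end peaks (14.03 to 38.9), against 15.9%. Both intervals contained the share over all genes.

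**Figure D3:**
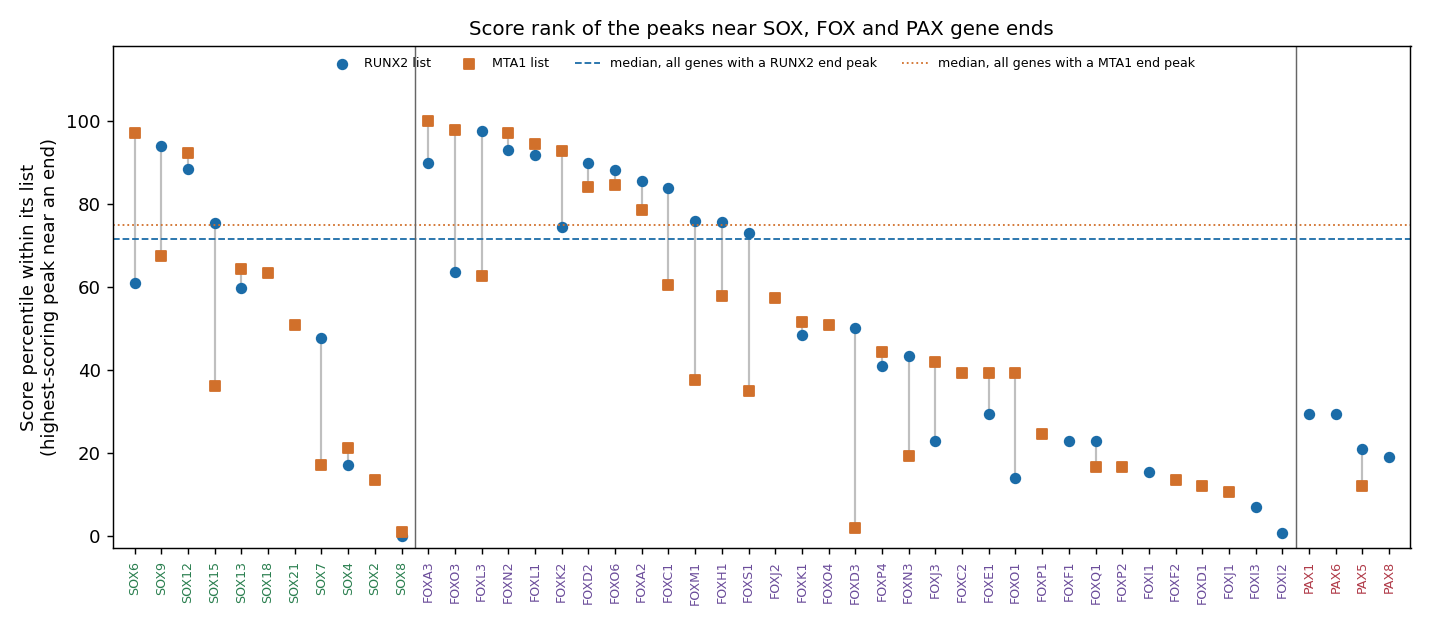
Score percentile of the highest-scoring end peak (y axis) for each member with an end peak (x axis, SOX, FOX and PAX genes from left to right), with circles for RUNX2, squares for MTA1 and grey lines joining both values of a gene. The dashed and dotted lines are the medians of all genes with an end peak, 71.5 for RUNX2 and 74.8 for MTA1, and all 4 PAX genes shown lie below them.

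Among the SOXE genes, SOX9, which drives cartilage formation, had a RUNX2 peak at each end. The peak at chr17:72126612-72126807 scored 29.96 (percentile 93.9), and that at the other end scored 10.4 (percentile 69.8). MTA1 peaks overlapped both, with scores of 10.7 (percentile 67.5) and 10.1 (percentile 65.0). SOX9 was the only SOX gene with a RUNX2 end peak at or above percentile 90. SOX8, its close relative, had end peaks near the lowest scores, 3.003 for RUNX2 and 3.19 for MTA1. SOX10, the neural crest factor, had no peak of either list at an end or inside.

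The SOXC genes act in neuronal and mesenchymal progenitors. SOX12 had the most end peaks of the members over both lists, 3 for RUNX2 and 4 for MTA1. Its highest RUNX2 peak scored 21.4 (percentile 88.4), centred 1055 bp before the listed start. Its highest MTA1 peak scored 24.8 (percentile 92.3), centred 162 bp before the start, on the sequence printed above. The other SOXC genes ranked far lower. SOX4, linked to epithelial-mesenchymal transition, had a RUNX2 peak of 4.52 (percentile 17.1) and an MTA1 peak of 5.22 (percentile 21.2) that did not overlap. SOX11 had no end peak and no inside peak in either list.

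The SOXD genes lack a transactivation domain. SOX6 had an MTA1 peak of 35.2 (percentile 97.0) and an overlapping RUNX2 peak of 8.26 (percentile 60.9). Both lay at the start of the neighbouring C11orf58, 29 bp and 3 bp from it, so the gene they belong to cannot be told apart. SOX13 had overlapping end peaks of 8.03 for RUNX2 (percentile 59.6) and 9.92 for MTA1 (percentile 64.2), and SOX5 had none.

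SOX2, SOX18 and SOX21 had an MTA1 end peak and no RUNX2 end peak. SOX2, the pluripotency and neural factor, had a peak of 4.70 (percentile 13.5). SOX18, a gene of endothelium, had 9.74 (percentile 63.4), and SOX21, a neural gene, had 7.66 (percentile 50.7). SOX18 and SOX21 stood above, and SOX2 below, the MTA1 median of the members.

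Among the FOX genes, FOXL3 had the highest-ranking RUNX2 end peak of all members. Its peak at chr7:291677-292083 scored 42.8 (percentile 97.6), and the overlapping MTA1 peak scored 9.58 (percentile 62.6). FOXL1, a gene of gut mesenchyme, had overlapping peaks of 952 bp with a RUNX2 score of 25.7 (percentile 91.7) and of 939 bp with an MTA1 score of 28.2 (percentile 94.4). FOXN2 had 27.7 for RUNX2 (percentile 92.9) and 35.4 for MTA1 (percentile 97.1). These genes and SOX9 were the 4 members with a RUNX2 end peak at or above percentile 90.

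The FOXA genes encode pioneer factors of endoderm. FOXA3 had the highest-ranking MTA1 end peak of all members, with a score of 74.9 (percentile 99.97), and an overlapping RUNX2 peak of 23 (percentile 89.8). The MTA1 peak was centred 130 bp from a start of the neighbouring SYMPK and about 1 kb before that of FOXA3. FOXA2 had overlapping peaks of 18.5 for RUNX2 (percentile 85.5) and 14.4 for MTA1 (percentile 78.5).

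FOXC, FOXD, FOXF and FOXQ genes act in mesoderm, neural crest and mesenchyme. FOXC1 had 3 RUNX2 end peaks and 1 MTA1 end peak. The highest RUNX2 peak scored 17 (percentile 83.7), centred 81 bp before the listed start, and the MTA1 peak over it scored 9.21 (percentile 60.3). Its relative FOXC2 had an MTA1 peak of 6.39 (percentile 39.1) and no RUNX2 end peak. FOXC1 thus had the higher-ranking end peaks of the pair. FOXD2 had 23.1 for RUNX2 (percentile 89.9) and 17.4 for MTA1 (percentile 84.1) on the promoter printed above. FOXF2 and FOXD1 had MTA1 peaks alone, at 4.70 (percentile 13.5) and 4.58 (percentile 11.8), and FOXF1 had a RUNX2 peak alone, at 4.84 (percentile 22.9). FOXQ1, linked to epithelial-mesenchymal transition, had peaks of 4.802 for RUNX2 (percentile 22.7) and 4.85 for MTA1 (percentile 16.4) that did not overlap.

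The FOXO proteins act in stress responses and cell-cycle arrest and are held out of the nucleus by AKT. FOXO3 had an MTA1 peak of 37.3 (percentile 97.6) at chr6:108558432-108558692 and an overlapping RUNX2 peak of 8.66 (percentile 63.5). FOXO6 had overlapping peaks of 20.97 for RUNX2 (percentile 88.1) and 17.7 for MTA1 (percentile 84.6). FOXO1 had overlapping peaks of 4.33 for RUNX2 (percentile 13.8) and 6.39 for MTA1 (percentile 39.1). FOXO4 had an MTA1 peak of 7.66 (percentile 50.7) alone. All 4 FOXO genes thus had an MTA1 end peak, at percentiles from 39.1 to 97.6.

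FOXM1 drives genes of mitosis. It had 2 end peaks in each list, the highest 12.5 for RUNX2 (percentile 75.8) and 6.22 for MTA1 (percentile 37.6), and all of them also lay within 3 kb of an end of RHNO1. FOXK1 and FOXK2, repressors that act in metabolism and autophagy, had end peaks of both lists. FOXK2 had 11.9 for RUNX2 (percentile 74.3) and 25.2 for MTA1 (percentile 92.6), which overlapped, and FOXK1 had 6.50 (percentile 48.4) and 7.67 (percentile 51.5). FOXP1, a regulator of B cell development, had an MTA1 peak of 5.53 (percentile 24.4) and no RUNX2 end peak. FOXP3, the regulatory T cell factor, had no peak of either list at an end or inside.

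The FOXI genes, which include regulators of ionocytes, had a RUNX2 end peak and no MTA1 end peak. The scores were 4.42 for FOXI1 (percentile 15.3), 3.67 for FOXI3 (percentile 6.85) and 3.07 for FOXI2 (percentile 0.655), all near the lower limit of the list. In the FOXJ group, FOXJ2 had an MTA1 peak of 8.69 (percentile 57.3) alone and FOXJ1, which drives motile cilia, one of 4.46 (percentile 10.5) alone.

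PAX end peaks were few and low in rank. PAX1 of the vertebral column and PAX6 of the eye had highest RUNX2 end peaks of 5.22 (percentile 29.3). PAX8, a thyroid and kidney factor, had a RUNX2 peak of 4.62 (percentile 19.03). PAX5, the B cell factor, had a RUNX2 peak of 4.73 (percentile 20.8) at 1 end and an MTA1 peak of 4.58 (percentile 11.8) at the other. These RUNX2 peaks were all 99 bp wide, the narrowest width of the list. PAX2, PAX3, PAX4, PAX7 and PAX9 had no end peak in either list.

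End peaks of genes with 1 list alone ranked low. The 7 RUNX2-only genes had percentiles from 0.655 to 29.3 (median 19.03), and their 7 highest peaks all had the narrowest width. The 11 MTA1-only genes had percentiles from 10.5 to 63.4 (median 24.4), and 5 had the narrowest width. Over all protein-coding genes the medians were 29.3 for RUNX2-only and 30.5 for MTA1-only genes. In the 30 members with both lists the medians were 68.2 for RUNX2 and 54.6 for MTA1, against 75.5 and 79.1 over all genes with both. Membership of 1 list alone thus went with low ranks among the members as among all genes.

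The peaks themselves were shared between the lists at high ranks. An overlap of at least 1 bp with a peak of the other list was found for 28 of the 51 RUNX2 end peaks of the members (54.9%, 40.3 to 68.9), against 67.3% over all genes. It was found for 29 of the 52 MTA1 end peaks (55.8%, 41.3 to 69.5), against 72.8%. The MTA1 interval lay below the share over all genes and the RUNX2 interval contained it. When an overlap had to cover 50% of each peak, MTA1 stood at 50% (35.8 to 64.2) against 56.0% and RUNX2 at 51.0% against 51.1%, and the MTA1 interval contained the share over all genes. At percentile 75 and above all 13 RUNX2 and all 11 MTA1 end peaks overlapped, against 93.5% and 97.0%. Below percentile 25, 5 of 15 and 2 of 17 did, against 27.8% and 32.9%. At 21 of the 30 members with both lists, the highest peak of each list overlapped a peak of the other, and the RUNX2 percentile was the higher at 15 of the 30. For these counts over members, no share of all genes is given.

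Start positions were listed for 51 members. A RUNX2 peak lay within 3 kb of a listed start in 20 of them (39.2%, 25.8 to 53.9) against 58.3%, and an MTA1 peak in 25 (49.0%, 34.8 to 63.4) against 59.0%. Both lists had one in 18 (35.3%, 22.4 to 49.9), against 51.7%. The far end had a RUNX2 peak in 25.5% against 21.5%, and an MTA1 peak in 17.6% against 17.9%. The share of start sides with a RUNX2 peak thus lay below that of all genes by more than its counting error, while the MTA1 interval contained the share of all genes. In genes over 20 kb, where the windows of both ends are apart, 13 of 24 members had an MTA1 peak near a start (54.2%, against 65.2%). None of the 24 had one near the far end, which allows up to 14.2%, against 13.9%.

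On the promoter window, from 250 bases before to 50 after a listed start, the shares were lower still. A RUNX2 peak overlapped it in 13 of 51 members (25.5%, 14.3 to 39.6) against 44.9%, and an MTA1 peak in 17 (33.3%, 20.8 to 47.9) against 48.4%. Both did in 11 (21.6%, 11.3 to 35.3), against 40.9%. All 3 intervals lay below the share of all genes. The median observed-to-expected ratio of CpG was alike, 0.731 over 78 windows of the members and 0.737 over 22199 windows. Among the 29 members with a ratio over 0.8, RUNX2 stood at 37.9% (20.7 to 57.7) against 64.2%, and MTA1 at 41.4% (23.5 to 61.1) against 69.2%. The CpG-rich promoters of the members thus carried a peak less often than CpG-rich promoters in general.

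The RUNX core motif was found in 13 of the 78 windows (16.7%, 9.18 to 26.8), against 19% of all windows. TGTGGT by itself was found in 10, against 11.3%. A RUNX2 peak lay on 1 of the 13 windows with a match, that of FOXC1 (7.69%, 0.195 to 36.03), and on 12 of the 65 without (18.5%, 9.92 to 30.03). Over all windows the shares were 42.4% and 36.4%. The 13 windows with a match came from 10 genes, so they are not independent. Of the 13, 7 had a CpG ratio up to 0.4, and none of the 14 member windows of that kind held a peak. Over all genes, 5.94% of windows with such a ratio held a RUNX2 peak. The part of CpG content in these shares was not tested. A match is a run of letters and not a measured site.

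Inside peaks were present at fewer of these mostly short genes than of all genes. RUNX2 inside peaks were found in 19 of the 72 members (26.4%, 16.7 to 38.1) against 39.6%, and MTA1 inside peaks in 15 (20.8%, 12.2 to 32.0) against 32.2%. No member under 10 kb had one, against 1.60% and 1.12% of such genes. Among the 19 members of 10 to 100 kb, 9 had a RUNX2 inside peak (47.4%, against 45.6%) and 8 an MTA1 inside peak (42.1%, against 35.5%). All 10 members over 100 kb had a RUNX2 inside peak, against 84.6%, and 7 had an MTA1 inside peak, against 74.0%. Within a length class the members were thus close to other genes.

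**Figure D4:**
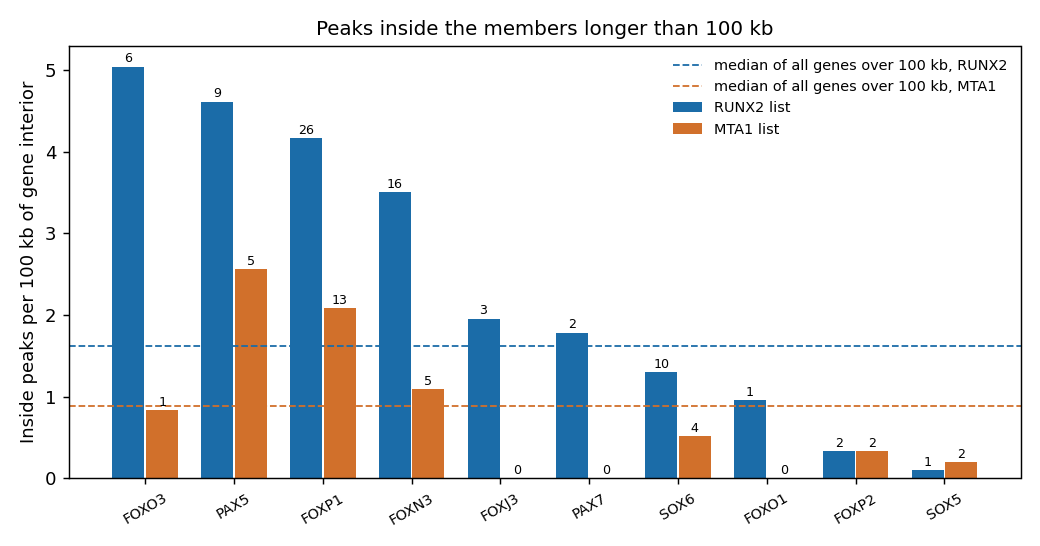
Inside peaks per 100 kb of gene interior (y axis) in the 10 members longer than 100 kb (x axis), with 1 bar per list, the number of peaks above each bar and dashed lines at the medians of all genes over 100 kb (1.62 for RUNX2 and 0.882 for MTA1). FOXO3, PAX5, FOXP1 and FOXN3 had the densest RUNX2 peaks, from 5.04 down to 3.50 per 100 kb, and FOXP2 and SOX5 the sparsest.

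The 10 long members held 76 RUNX2 inside peaks, or 1.83 per 100 kb against 1.88 in all genes over 100 kb. They held 32 MTA1 inside peaks, or 0.769 per 100 kb against 1.16. The median per gene was 1.87 against 1.62 for RUNX2 and 0.427 against 0.882 for MTA1, so the RUNX2 direction depended on how genes were pooled. The spread among them was wide. FOXP1 had 26 RUNX2 and 13 MTA1 inside peaks, or 4.17 and 2.09 per 100 kb. FOXN3 had 16 and 5, SOX6 had 10 and 4, and PAX5 had 9 and 5. SOX5 had 1 and 2 over a span of 1033147 bp, and FOXP2, a gene of speech circuits, had 2 and 2 over 607439 bp.

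Several members had higher-ranking peaks inside than at their ends. The inside values are the highest of more peaks, such as 8 RUNX2 inside peaks in FOXK1 beside 2 at its ends, and 16 beside 1 in FOXN3. PAX8 held overlapping inside peaks of 46.9 for RUNX2 (percentile 98.2) at chr2:113240907-113241307 and 56.2 for MTA1 (percentile 99.6). In FOXK1 overlapping inside peaks scored 43.3 for RUNX2 (percentile 97.7) at chr7:4744779-4745381 and 56.0 for MTA1 (percentile 99.6). FOXN3 held overlapping inside peaks of 53.3 for RUNX2 (percentile 98.9) and 16.2 for MTA1 (percentile 82.1). All of these RUNX2 peaks ranked above the RUNX2 end peak of FOXL3. FOXO1 held a RUNX2 inside peak of 46.2 (percentile 98.1) and no MTA1 inside peak. FOXP1, with no RUNX2 end peak, held a RUNX2 inside peak of 30.9 (percentile 94.3), and a RUNX2 peak at percentile 77.5 lay within 3 kb of 1 of its 6 listed starts. Of the 19 members with a RUNX2 inside peak, 9 had one at or above percentile 90 (47.4%, against 21.3% of all genes with an inside peak). For MTA1 these were 3 of 15 (20%, against 14.4%). No interval was computed for these shares. Over all inside peaks of the members the median percentile was 41.8 for RUNX2 against 46.9, and 45.6 for MTA1 against 44.5.

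Intergenic peaks were numerous around these genes. Intergenic RUNX2 peaks whose nearest protein-coding gene was a member numbered 247, or 3.43 per gene against 1.11, and lay around 49 of the 72 (68.1%, 56.0 to 78.6), against 35.9%. Intergenic MTA1 peaks numbered 126, or 1.75 per gene against 0.673, and lay around 40 (55.6%, 43.4 to 67.3), against 27.8%. The intergenic stretch nearest to a member was also longer, with a median of 115 kb against 25.5 kb. Per 100 kb of such sequence there were 1.73 RUNX2 peaks against 1.30, and 0.880 MTA1 peaks against 0.792. The gap between members and all genes was thus smaller per length than per gene. In the comparison families the densities were 1.21 and 0.782. The gene on which such a peak acts was not measured.

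**Figure D5:**
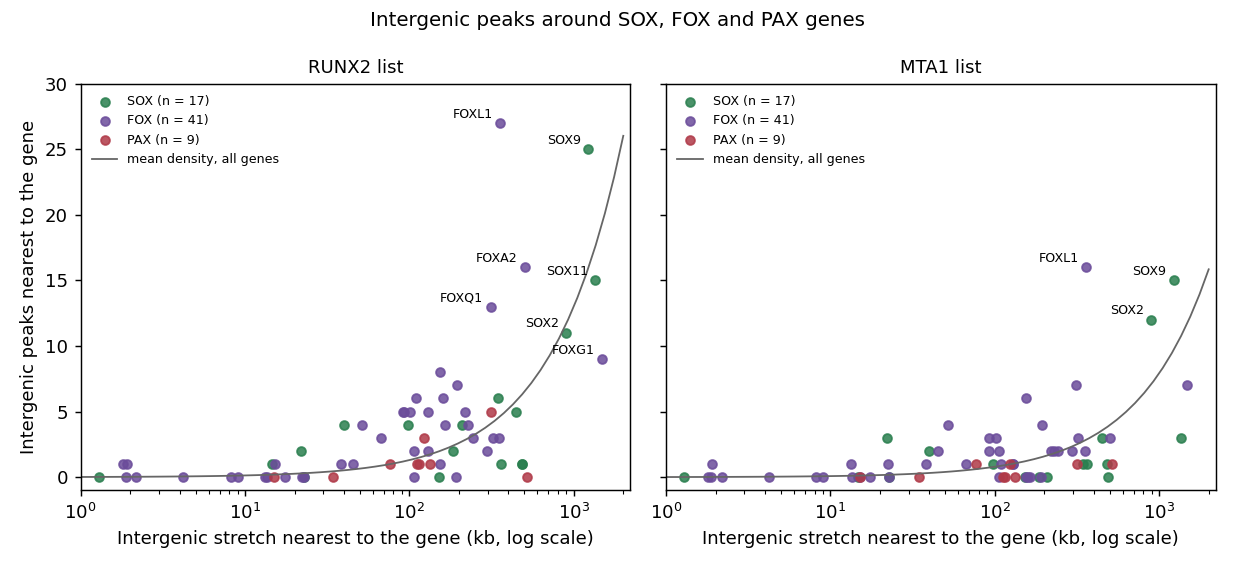
Number of intergenic peaks nearest to a member (y axis) against the length of the intergenic stretch nearest to it (x axis, kb on a log scale), with 1 point per gene coloured by family and 1 panel per list, for the 67 members with such a stretch. The line is the mean density of all protein-coding genes, and FOXL1 (27 RUNX2 and 16 MTA1 peaks) and SOX9 (25 and 15) lie above it.

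The following genes were chosen after their intergenic counts and scores were seen. FOXL1 had 27 RUNX2 and 16 MTA1 intergenic peaks in 358 kb, or 7.54 and 4.47 per 100 kb. SOX9 had 25 and 15 in its gene-poor surroundings, and its highest MTA1 peak, 25.4 kb away, scored 30.3 (percentile 95.4) and overlapped a RUNX2 peak. FOXA2 had 16 and 3, SOX11 had 15 and 3, FOXQ1 had 13 and 7, and SOX2 had 11 and 12. Those of SOX11 were low in rank, with a highest RUNX2 score of 7.48 (percentile 56.7). Some members with low-ranking end peaks had high-ranking peaks at a distance. FOXD1 had overlapping intergenic peaks of 63.9 for RUNX2 (percentile 99.5) and 35.1 for MTA1 (percentile 97.0) at 124 kb. FOXF2 had overlapping intergenic peaks of 62.3 for RUNX2 (percentile 99.4) and 43.0 for MTA1 (percentile 98.6) at 85.9 kb. Over all intergenic peaks nearest to members the median percentile was 42.3 for RUNX2 against 45.2, and 48.4 for MTA1 against 44.5.

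In all, 52 members had an end or inside peak of at least 1 list. Of the 24 without an end peak, 4 had an inside peak and 13 were the nearest gene to an intergenic peak. No peak of these kinds was found for 10 members, namely FOXD4, FOXE3, FOXN4, FOXP3, FOXR1, FOXR2, PAX4, PAX9, SOX10 and SOX17. Shares over all protein-coding genes are not given for these counts, so they do not set the members apart.

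Genes that work with these regulators were counted in lists drawn from textbook knowledge. RUNX2 medians below cover all genes with a RUNX2 end peak, and MTA1 medians all genes with an MTA1 end peak. They are not limited to genes with both. FOXO target genes of arrest and stress response had end peaks of both lists at 12 of 12 genes, with median percentiles of 83.0 for RUNX2 and 86.7 for MTA1. FOXM1 targets of mitosis had them at 10 of 10 (medians 68.0 and 74.8), and kinases and other controllers of FOXO at 10 of 12 (88.8 and 80.0). TLE corepressors had them at 5 of 6 (61.1 and 48.5), and the EYA, DACH and sine oculis homeobox partners of PAX proteins at 7 of 12 (61.2 and 66.7). POU, TCF and other partners of SOX proteins had them at 6 of 12 (56.9 over 6 genes and 50.1 over 9). SOX9 targets of cartilage matrix had them at 2 of 8 (50.7 and 21.8, over 3 genes each). The cartilage genes COL2A1 and ACAN had no end peak, but 2 and 3 RUNX2 inside peaks. RUNX2 inside peaks were present at 5 of the 8 SOX9 targets (62.5%, 24.5 to 91.5), against 39.6% of all protein-coding genes. The share of all protein-coding genes with end peaks of both lists was 51.9%, with medians of 71.5 and 74.8 over genes with an end peak.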

How the data were processed

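CUT&Tag was done on untreated MDA-MB-231 cells using a RUNX2 or an MTA1 antibody, with 1 library each. The authors deposited 1 peak list per library, with a score of unstated scale for each peak. The notes of the submitters name CASAVA 1.4, Bowtie 0.12.8, MACS and MACS2, with no role or order, and the build hg19. The threshold, and whether a control library entered peak calling, are not given in the sources used here. The build was checked on the peaks. Of 22199 RefSeq promoter windows on GRCh38.p14, 37.5% held a RUNX2 peak and 40.7% an MTA1 peak. After a move of the windows by 10000 or 100000 bp the shares were at most 1.89% and 1.49%, and lower on 22 of 22 chromosomes. Positions were therefore read as GRCh38.

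Positions were made 1-based and matched to RefSeq genes with Python 3.11.15, pandas 2.3.3 and numpy 2.4.6, and intervals were computed with scipy 1.17.1. All 72 members were found, and the RefSeq promoter table covered 51 of them and 15843 protein-coding genes. Assignment and overlap were tested on simulated peaks. No statistical test was run, because each antibody had 1 library. Depth was unknown.

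Named were the 10 members with the highest end-peak percentile in each list, the 6 highest with 1 list alone in each, the 6 with most inside peaks, and a set of 20 of known interest. Other members named were chosen after their values were seen. The members and gene lists were chosen with earlier results of these data known. The FOX gene left out by name is not reported here. Alternatives were other windows, peak subsets, symbols, overlaps and motifs.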

Additional observations from a re-analysis of the deposited data

Results flagged for a closer look

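The lists held 17 RUNX2 peaks and 15 MTA1 peaks on mitochondrial DNA, outside every comparison above. No control library was at hand for comparison.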

How the results depend on the processing

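The counts depended most on which peaks were used. When each list was limited to its 10000 peaks of highest score, end peaks were present at 9 members for RUNX2, 10 for MTA1 and 7 for both, with 2 RUNX2 only, 3 MTA1 only and 60 neither. The MTA1 interval (6.87 to 24.1%) then lay below the share of all genes, and the RUNX2 interval (5.88 to 22.4%) contained it. MTA1 inside peaks were then present at 6, the overlap of RUNX2 end peaks was 77.8%, and the median percentiles were 89.9 (RUNX2) and 93.5 (MTA1). Over all protein-coding genes this setting gave 17.9% for RUNX2, 28.3% for MTA1 and medians of 92.1 and 91.3. When peaks under the median score were left out, the counts were 19 for RUNX2, 20 for MTA1, 15 both, 4 RUNX2 only, 5 MTA1 only and 48 neither. The overlaps were then 70.8% and 75%, and the median percentiles 83.7 and 73.0, against 79.9 and 83.8 over all genes. Without the narrowest peaks, 4 members were RUNX2 only and 37 neither, and the RUNX2 overlap was 71.4%. On the start side of the 51 members with a listed start, the counts were 20 for RUNX2, 25 for MTA1, 18 both, 2 RUNX2 only and 7 MTA1 only. With a window of 1 kb, 37 members had neither, against 43.1% of all genes. Fewer peaks, genes or bases entered each count in these settings. With a window of 10 kb, 7 longer symbols such as FOXO3B added, a 50% overlap or TGTGGT alone, no count moved by over 1.5 times and no overlap or median left its interval, although the 50% overlap ended the MTA1 difference given above. The same held for peaks at no other protein-coding gene end, an alternative chosen after seeing the data. No paired analysis was possible because each antibody had 1 library, and for the same reason no replicate could be left out. Unknown depth limits every statement on a missing peak.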
